A study of Mus musculus with 11 samples.

Results

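A set of 7 marker genes of heart cells other than cardiomyocytes were followed through chromatin maps of adult and neonatal mouse cardiomyocytes: 5 fibroblast genes (Tcf21, Col1a1, Col1a2, Postn and Pdgfra) and 2 endothelial genes (Pecam1 and Cdh5). Each gene was taken as a fixed window on the mm9 build, from 16 kb for Tcf21 to 107 kb for Pecam1 and 341 kb in all, and every enriched interval or comparison region that overlapped a window was used. Chromatin immunoprecipitation with sequencing had been done for 4 histone marks, with 1 library per mark and stage. The 8 immunoprecipitated libraries and 3 input libraries made up the 11 samples of the series. Neonatal cells had an input labelled for H3K4me3, apart from their other input, whereas adult cells had a single input. The adult cardiomyocytes came from mice 2 months old and the neonatal cardiomyocytes from mice 1 day old. Both were primary cells freed by enzymatic digestion and then purified, with no genetic change or treatment given in the labels. Lists for mouse embryonic stem (mES) cells were deposited beside them, made by the authors from published reads that are not samples of the series. Of 19265 distinct regions in the 12 deposited comparison tables, 6 fell in the windows, 1 per gene except Postn, which had none. The windows held 61 of the adult and neonatal islands and 32 of the mES islands. An island is an interval of clustered reads called with SICER.

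The 4 marks sit at different parts of a gene's life. H3K4me3 marks promoters that are active or ready for use, and H3K79me2 spreads over the early body of transcribed genes. H3K27me3 is laid down by Polycomb at silenced developmental genes, and H3K9me3 is the mark of heterochromatin. In the heart, fibroblasts and endothelial cells lie between the muscle fibres, so their genes are used to ask whether a cardiomyocyte preparation carried other cells. Tcf21 encodes a transcription factor of epicardium-derived fibroblasts, and Pdgfra the PDGF receptor alpha chain of mesenchymal cells. Col1a1 and Col1a2 encode the 2 chains of type I collagen, and Postn encodes periostin, a matrix protein of activated fibroblasts and developing valves. Pecam1, or CD31, is an adhesion molecule of endothelial junctions and is also made by mouse embryonic stem cells. Cdh5 encodes VE-cadherin, the cadherin that joins endothelial cells.

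Promoters were available from RefSeq, build GRCm38.p6, for 4 of the 7 genes, each 300 bases long from 250 bases before the start to 50 after it. All 4 of these genes are shown, as no promoter was available for the others. The Tcf21, Col1a2 and Postn windows held an H3K4me3 island in neonatal cells and none in adult cells, whereas Pdgfra held one at both stages. Lower case letters are the bases 5′ to 3′ on the gene's strand, and capitals mark every CG. They were not placed on mm9, so no island was assigned to a promoter.
Tcf21 (chr10:22820094-22820393, minus strand): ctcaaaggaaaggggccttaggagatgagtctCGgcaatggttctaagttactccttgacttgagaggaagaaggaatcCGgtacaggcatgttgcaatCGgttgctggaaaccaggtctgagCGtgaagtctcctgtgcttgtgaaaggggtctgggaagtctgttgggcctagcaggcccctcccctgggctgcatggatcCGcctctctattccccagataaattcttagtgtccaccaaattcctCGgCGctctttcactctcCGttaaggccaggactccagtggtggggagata
Col1a2 (chr6:4505368-4505667, plus strand): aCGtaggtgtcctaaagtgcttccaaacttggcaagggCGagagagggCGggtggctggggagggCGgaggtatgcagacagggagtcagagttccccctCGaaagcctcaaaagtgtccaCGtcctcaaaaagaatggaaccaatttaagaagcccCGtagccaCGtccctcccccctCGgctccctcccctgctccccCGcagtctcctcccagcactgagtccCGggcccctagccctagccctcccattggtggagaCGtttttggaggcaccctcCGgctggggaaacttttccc
Postn, one of 2 starts (chr3:54360857-54361156, plus strand): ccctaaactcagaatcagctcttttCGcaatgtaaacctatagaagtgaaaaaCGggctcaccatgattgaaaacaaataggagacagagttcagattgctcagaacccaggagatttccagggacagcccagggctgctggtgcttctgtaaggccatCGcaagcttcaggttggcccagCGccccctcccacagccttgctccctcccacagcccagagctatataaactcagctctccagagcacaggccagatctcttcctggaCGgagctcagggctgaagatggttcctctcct
Pdgfra (chr5:75152001-75152300, plus strand): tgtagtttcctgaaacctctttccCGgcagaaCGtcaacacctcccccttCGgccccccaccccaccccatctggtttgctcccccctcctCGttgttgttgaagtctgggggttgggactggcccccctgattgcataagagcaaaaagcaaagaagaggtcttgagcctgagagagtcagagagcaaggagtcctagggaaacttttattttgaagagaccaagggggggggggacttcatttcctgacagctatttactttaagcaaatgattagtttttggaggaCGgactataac
The Col1a2 promoter had 13 CG pairs and that of Tcf21 had 8, against a median of 7 over 32851 promoters of 27025 genes. The Pdgfra promoter and the printed Postn promoter had 5 each. The letters TATAAA, searched on both strands, occurred in this Postn promoter and in not in those of Tcf21, Col1a2 and Pdgfra, and 13.6% of all promoters held them.

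In H3K4me3 reads, the 4 fibroblast genes with a compared region (Tcf21, Col1a1, Col1a2 and Pdgfra) were lower in adult than in neonatal cardiomyocytes, and Cdh5 was higher in adult cells. Adult cells had an H3K4me3 island in 2 of 5 fibroblast windows (Col1a1 and Pdgfra), and neonatal cells in all 5. Both endothelial windows held one in adult cells, and only that of Pecam1 did in neonatal cells. By length, islands covered 7.07% of the fibroblast windows in adult cells and 24.5% in neonatal cells. Pdgfra was the exception by length, with 9.6 kb in adult and 8.6 kb in neonatal cells. Over the endothelial windows the order was the other way, with 11.4% in adult cells and 1.5% in neonatal cells. The whole lists were close in extent, with 56.4 Mb under 23957 islands in adult cells and 57.5 Mb under 21312 islands in neonatal cells. All of these values rest on 1 library each and carry no replicate check.

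**Figure D1:**
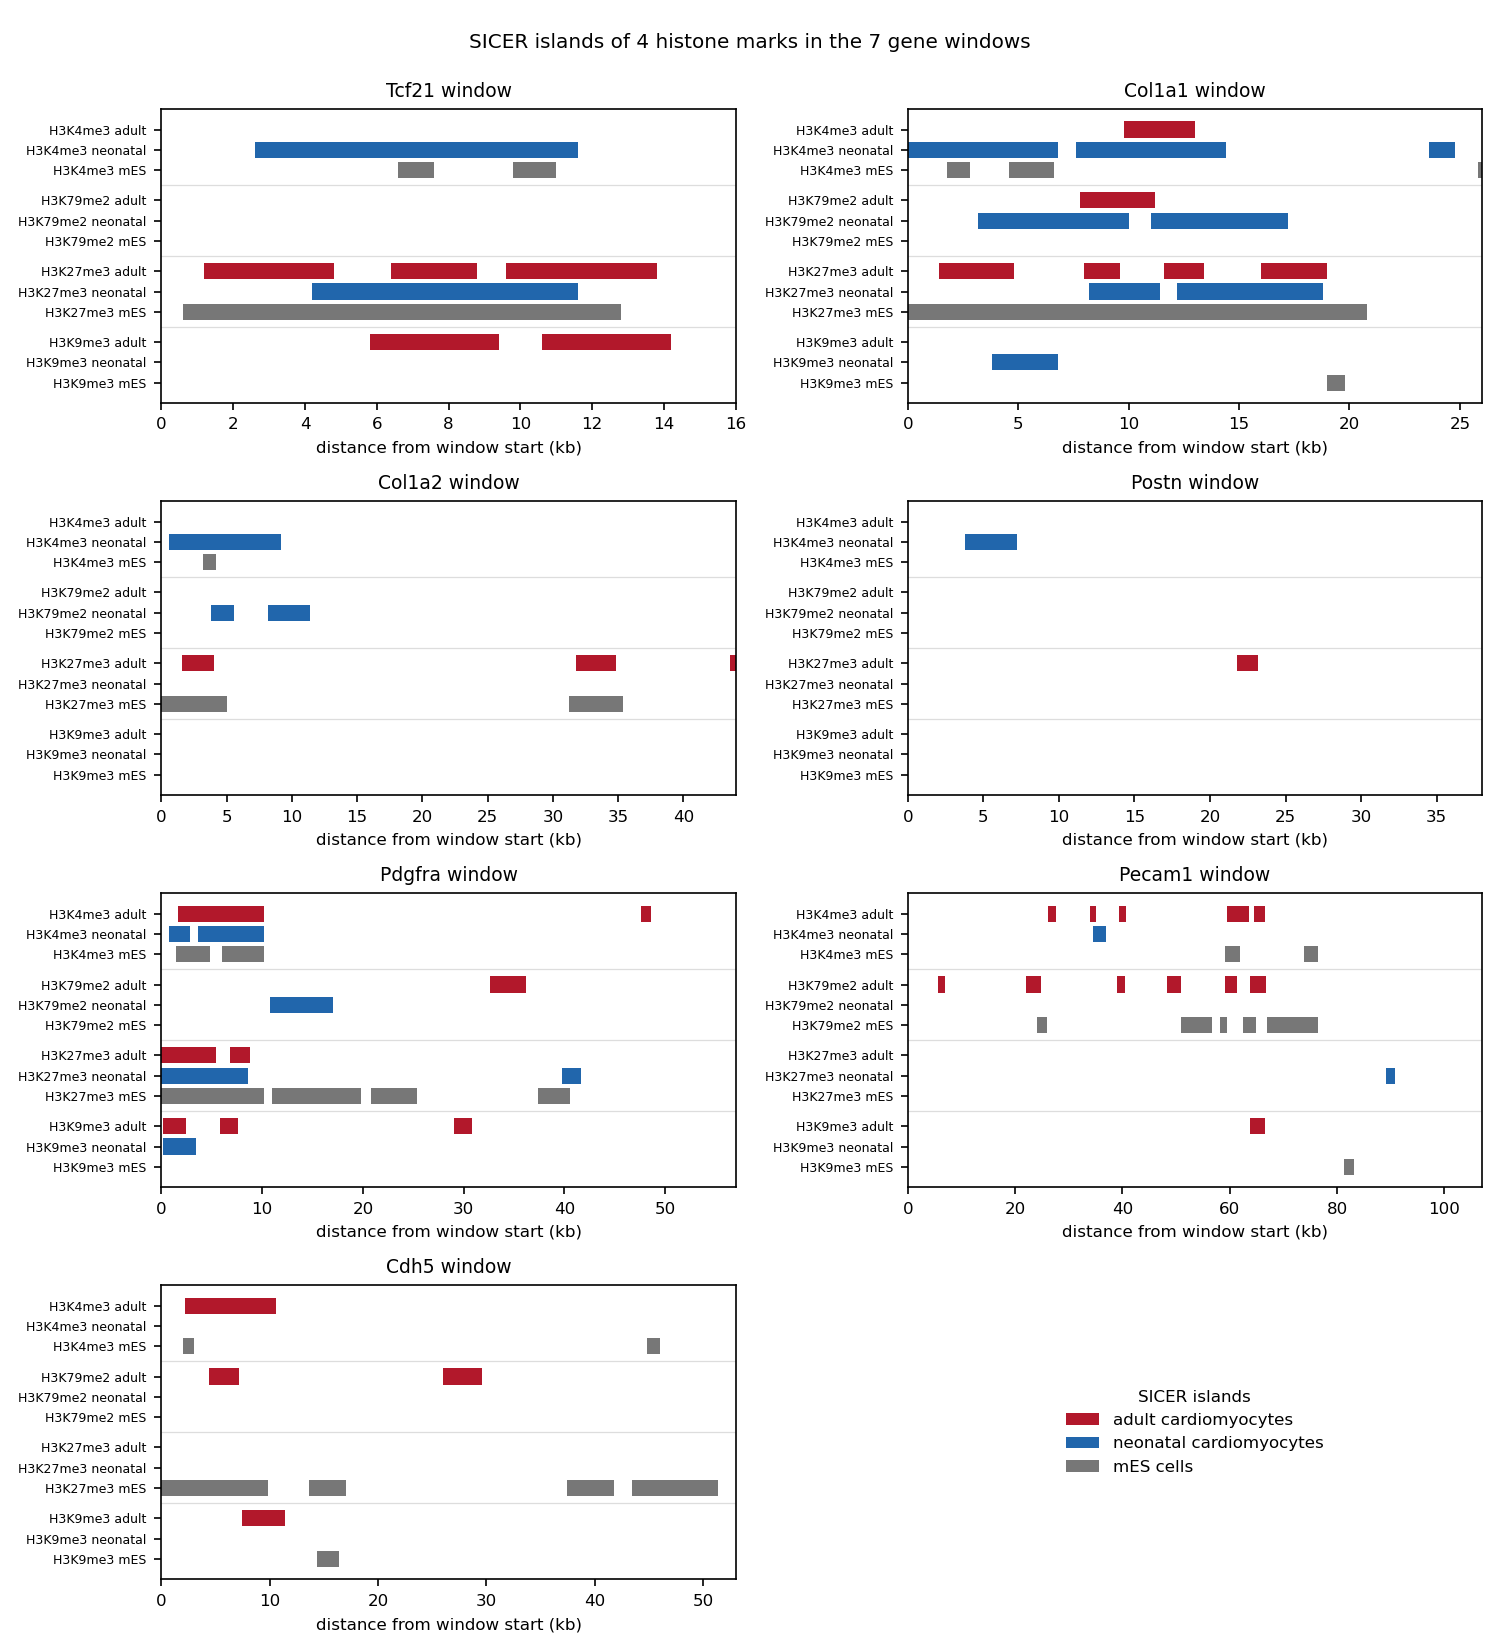
SICER islands of the 4 marks in the 7 gene windows, drawn by distance from the window start in kb (red, adult; blue, neonatal; grey, mES cells). The Tcf21, Col1a2 and Postn windows show H3K4me3 in neonatal cells and none in adult cells, and the Cdh5 window shows no neonatal island of any mark.

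**Figure D2:**
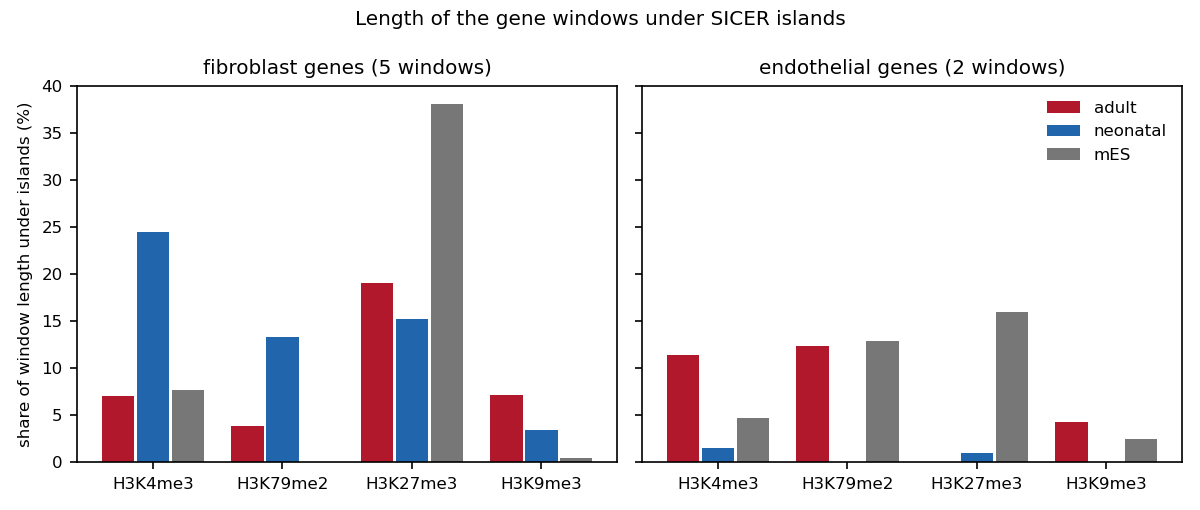
Share of window length under islands, in percent, for the 5 fibroblast and the 2 endothelial windows (red, adult; blue, neonatal; grey, mES cells; 1 library per bar). For H3K4me3 the fibroblast windows stand at 7.07% in adult and 24.5% in neonatal cells, and the endothelial windows at 11.4% and 1.5%.

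Tcf21 showed the widest H3K4me3 gap between the stages among the 6 regions. Its region, chr10:22529600-22542799, had 11 H3K4me3 reads in adult cells and 143 in neonatal cells, counted after the authors' subtraction of control reads. After scaling by the authors' library factors the adult level was 21.9-fold lower (95% counting interval 11.9 to 44.8), and the authors' deposited table gave an FDR of 1.22e-92 for it. Such an FDR compares the reads of 2 libraries, and the intervals cover counting error only, since PCR reads without molecular identifiers are not independent molecules. In the authors' deposited table only 0.731% of the H3K4me3 regions had a more negative log2 value. The neonatal island was 9 kb long, at chr10:22531600-22540599, with a SICER score of 177 that exceeded 98.2% of the neonatal list.

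The 2 collagen genes differed from each other in degree. In the Col1a2 region, chr6:4452600-4463399, adult cells had 32 H3K4me3 reads and neonatal cells 97, a 5.10-fold lower adult level (3.39 to 7.87). The neonatal island there was 8.6 kb long with a score of 145, above 97.1% of its list, and adult cells had none. The Col1a1 region, chr11:94792800-94811799, had 99 reads in adult cells and 131 in neonatal cells, which after scaling was 2.23-fold lower in adult cells (1.70 to 2.92). Here both stages had islands: the single adult island, 3.2 kb long with a score of 37, lay wholly inside neonatal ones, of whose length in the window it covered 21.6%. Neonatal cells had 3 islands over the Col1a1 window, the strongest with a score of 131. Both collagen regions start where a neonatal H3K4me3 island starts. The Col1a2 region ends with a neonatal H3K79me2 island, and the Col1a1 region with a neonatal H3K27me3 island. The part of these ends in the lower adult H3K4me3 and H3K79me2 values was not tested.

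Pdgfra kept a strong island at both stages. Its region, chr5:75539000-75553459, had 117 H3K4me3 reads in adult cells and 172 in neonatal cells, 2.47-fold lower in adult cells after scaling (1.95 to 3.16). The main adult island had a score of 127, above 97.1% of its list, and the main neonatal island a score of 141, above 96.8%. The stages shared 7.8 kb, which was 81.3% of the adult and 90.7% of the neonatal island length in the window. Postn had no region in any comparison table, so no reads could be compared. Its neonatal H3K4me3 island, chr3:54164800-54168199, was 3.4 kb long with a score of 56, above 68.5% of the list, and adult cells had none.

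The endothelial genes ran the other way for Cdh5, and with few reads for Pecam1. The Cdh5 region, chr8:106618600-106631599, had 146 H3K4me3 reads in adult cells and 11 in neonatal cells, a ratio of 7.88 (4.28 to 16.1). The adult island, 8.4 kb long with a score of 159, stood above 98.3% of the adult list, and neonatal cells had no island of any mark in the Cdh5 window. The Cdh5 region ends where this adult island ends, and the part of that end in the higher adult value was not tested. A lower log2 value than that of Cdh5 was held by 75.4% of the H3K4me3 regions in the authors' deposited table, whose median was 0.74. The Pecam1 region, chr11:106577000-106586399, held no island at either stage, with 8 reads in adult cells and 2 in neonatal cells, and the ratio of 2.38 had an interval from 0.474 to 23.0. Elsewhere in the Pecam1 window adult cells had 5 H3K4me3 islands, the strongest with a score of 49, above 71.0% of the list. Neonatal cells had 1, with a score of 32, above 27.7% of the list.

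Counted by the authors' deposited table at an FDR under 0.01, 4 of the 6 member regions were lower in adult cells in H3K4me3 (Tcf21, Col1a1, Col1a2 and Pdgfra). The same table listed 24.6% of all regions as lower. One member region, Cdh5, was higher, against 29.4% of all regions in the authors' deposited table. Islands gave a similar picture: of the 4 member regions with a neonatal H3K4me3 island, 2 (Tcf21 and Col1a2) lacked an adult one, whereas 12.1% of the 12345 table regions with a neonatal island did. Of the 6 member regions 3 held an adult H3K4me3 island and 4 a neonatal one, beside 64% of all table regions in adult cells and 64.1% in neonatal cells. The deposited MACS lists, a narrower peak call, had regions of neonatal H3K4me3 in 4 windows (Tcf21, Col1a1, Col1a2 and Pdgfra) and of none of the other 7 combinations of mark and stage in any window. Those lists differ in size, with 5611 adult and 12453 neonatal H3K4me3 regions on the assembled chromosomes. The lists of the empty combinations ran from 484 regions (neonatal H3K9me3) to 13210 (neonatal H3K79me2). Their rate over all regions was not computed, so their absence from the windows is not read as a result about these genes. The number of regions the authors tested was not at hand, so the shares given above are of all distinct regions listed. In bulk chromatin, fewer cells with a mark and less mark per cell cannot be told apart. Age and heart region also differ together between the groups, since the adult label alone names the left ventricle. In H3K4me3 the inputs differ with them, since only neonatal cells had an input labelled for that mark.

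**Figure D3:**
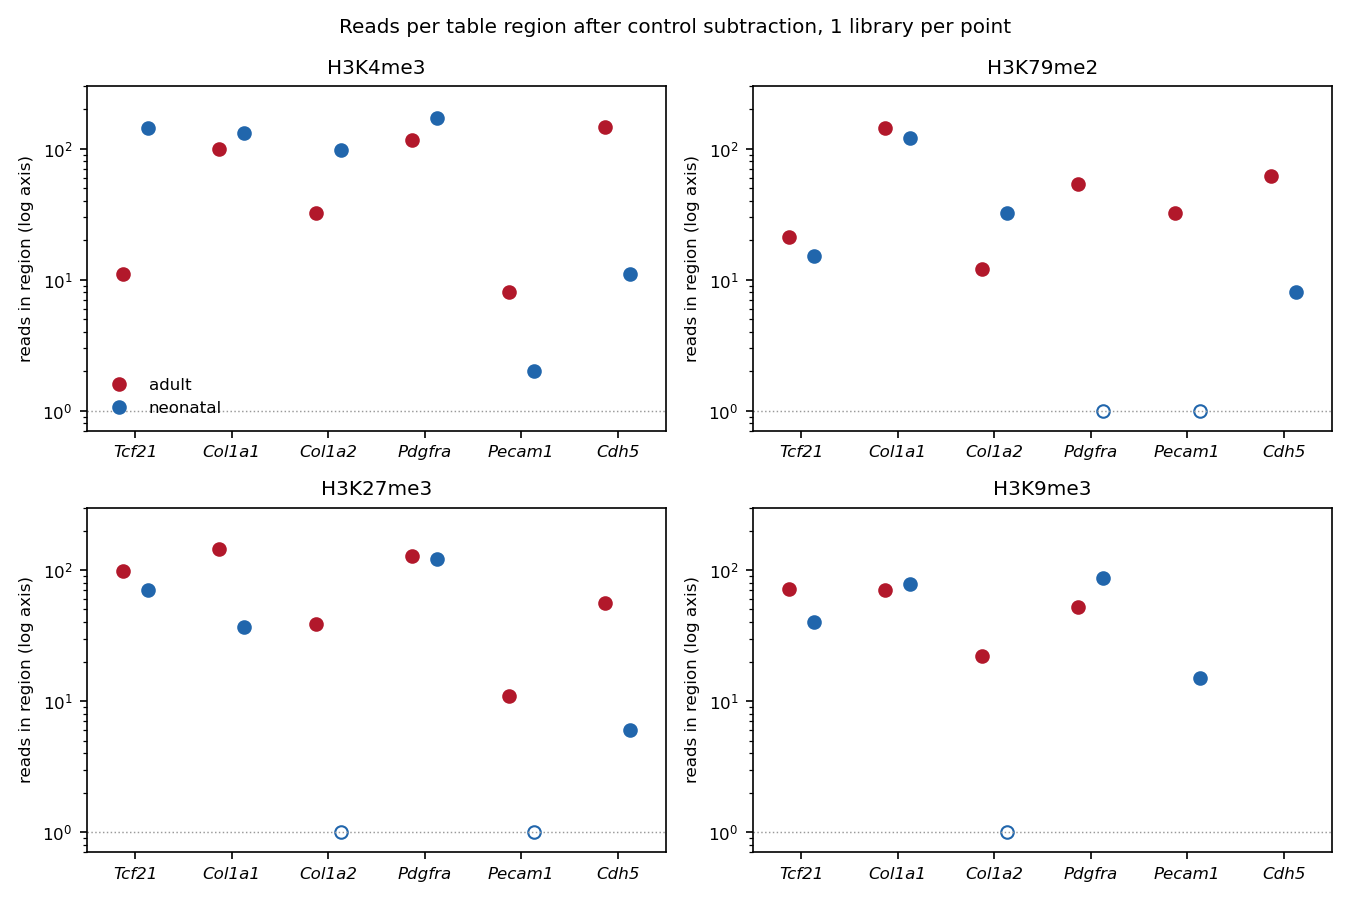
Reads per region after control subtraction on a log axis, for each gene and mark (red, adult; blue, neonatal; 1 library per point; the dotted line is the tables' lowest value of 1 and open points lie at it; no point is drawn where the tables give no value). In H3K4me3, Tcf21 had 11 adult and 143 neonatal reads and Cdh5 had 146 adult and 11 neonatal reads.

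H3K79me2, the mark of transcribed gene bodies, followed the same division for the collagen genes and Cdh5. Adult islands lay in 2 fibroblast windows (Col1a1 and Pdgfra) and in both endothelial windows, and neonatal islands in 3 fibroblast windows (Col1a1, Col1a2 and Pdgfra) and in neither endothelial window. Islands covered 3.87% of the fibroblast windows in adult cells and 13.4% in neonatal cells, and 12.4% of the endothelial windows in adult cells against 0% in neonatal cells. The adult list was far larger, with 60601 islands over 261 Mb, against 17899 over 114 Mb in the neonatal list. When each list was held to the same number of its strongest islands, the adult list had none in any of the 7 windows.

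Col1a2 had 12 H3K79me2 reads in adult cells and 32 in neonatal cells, a 5.33-fold lower adult level (2.67 to 11.4). For Col1a1 the reads were 143 in adult cells and 120 in neonatal cells. The direction for Col1a1 depended on the library factors: the log2 value in the authors' deposited table was -0.75, and without the factors it was 0.25. Its neonatal islands, with scores of 115 and 90, covered far more of the gene than the adult island, with a score of 51. Tcf21 had no H3K79me2 island at either stage, and 21 adult and 15 neonatal reads gave a ratio of 0.70 with an interval from 0.344 to 1.46.

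Cdh5 had 62 H3K79me2 reads in adult cells and 8 in neonatal cells, a ratio of 3.88 (1.85 to 9.38). The Pdgfra and Pecam1 regions were compared against the lowest value the tables give, 1 read, in neonatal cells. That value is a floor left after control subtraction and not a count, so only the lower limit of the 95% counting interval is given. Pdgfra had 54 adult reads, with a lower limit of 4.65-fold, although no H3K79me2 island lay in that region at either stage. Outside the region the stages had separate islands in the Pdgfra window. The neonatal island, chr5:75553800-75559999 with a score of 73, started just past the region's end at 75553459. The adult island, chr5:75575600-75579199 with a score of 33, lay farther along. The floor value in neonatal cells thus belongs to the region only and not to the whole gene. The Pecam1 region had 32 adult reads against the floor in neonatal cells, with a lower limit of 2.67-fold, again with no island in the region. The wider Pecam1 window held 6 adult H3K79me2 islands, with scores from 27 to 39. By the authors' deposited table, 3 of 6 regions had more H3K79me2 in adult cells (Pdgfra, Pecam1 and Cdh5), beside 35.4% of all regions, and 2 were lower (Col1a1 and Col1a2), beside 30.2%. An H3K79me2 island lay in 2 of the 6 regions in adult cells and in 2 in neonatal cells, beside 65.3% of table regions in adult cells and 50% in neonatal cells.

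**Figure D4:**
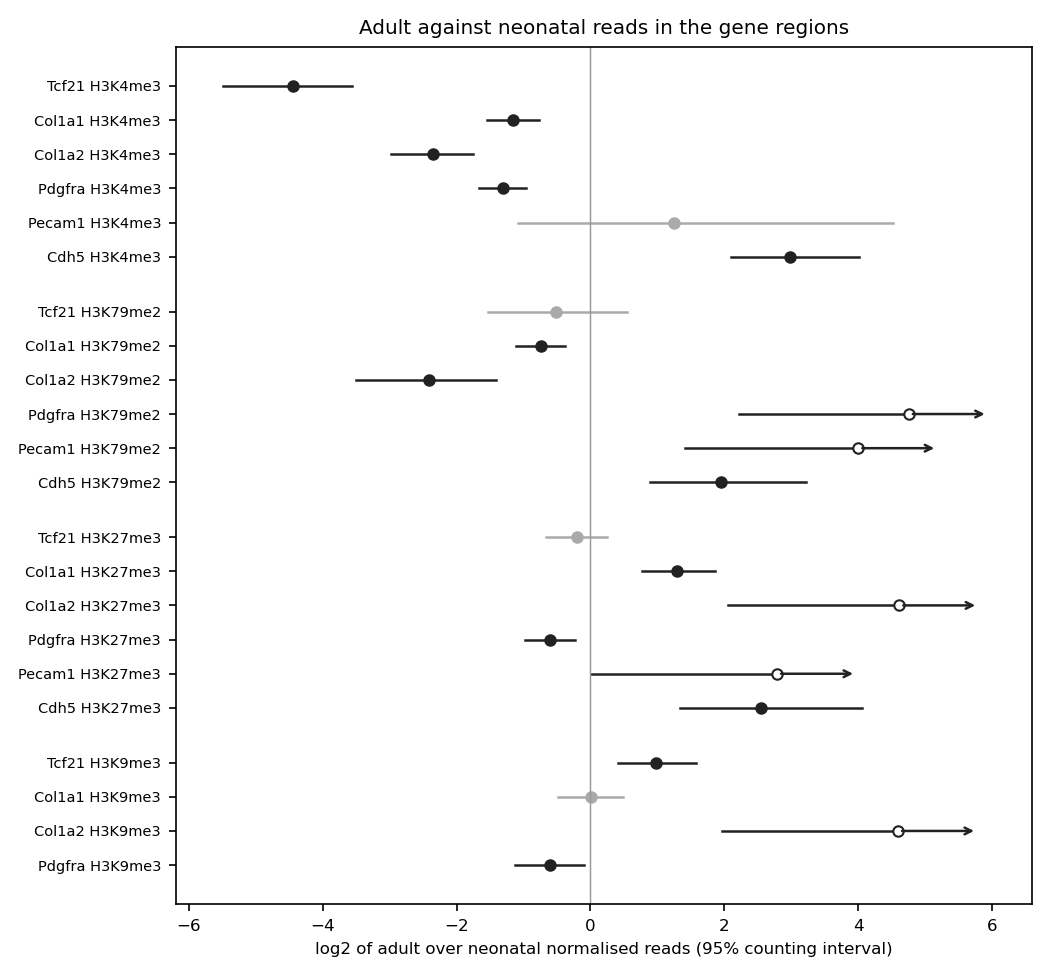
Log2 of adult over neonatal normalised reads for the 22 pairs of region and mark with reads of both stages, with 95% counting intervals (black, listed in the stage table; grey, not listed at an FDR under 0.01; open with an arrow, neonatal reads at the floor of 1, where only the lower limit is drawn). Tcf21 in H3K4me3 lies farthest to the left at -4.45, and Cdh5 lies right of 0 in H3K4me3, H3K79me2 and H3K27me3.

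H3K27me3, the Polycomb mark, lay on all 5 fibroblast windows in adult cells and on neither endothelial window. The adult list was longer, with 23721 islands against 13552 in neonatal cells, and with equal numbers of top islands the adult count was 4 of 5, without Postn. In neonatal cells it lay on 3 fibroblast windows (Tcf21, Col1a1 and Pdgfra) and, as 1 weak island above 4.88% of its list, on Pecam1. The share of fibroblast window length under islands was 19.1% in adult cells and 15.2% in neonatal cells. Tcf21 carried the mark at both stages, with 98 reads in adult cells and 71 in neonatal cells, and the scaled ratio of 0.867 had an interval that spans 1 (0.632 to 1.19). The 5 kb shared between the stages made up 49.0% of the adult and 67.6% of the neonatal H3K27me3 length. In neonatal cells 7.4 kb of the Tcf21 window lay under both H3K4me3 and H3K27me3. In adult cells H3K27me3 lay there with H3K9me3 over 5.6 kb, and H3K4me3 was not called.

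Pdgfra also carried both H3K4me3 and H3K27me3 islands at each stage. Its H3K27me3 reads were 127 in adult cells and 121 in neonatal cells, a scaled ratio of 0.659 (0.510 to 0.852). Without the library factors that value turned to slightly higher in adult cells, 0.070 on the log2 scale. Within the window, 97.3% of the adult H3K27me3 length lay inside neonatal islands. The first adult island also ran past the window start, and that stretch is not counted. Islands of these marks overlapped in 2 windows in adult cells (Col1a1 and Pdgfra) and in 3 in neonatal cells (Tcf21, Col1a1 and Pdgfra). The share of all regions with such an overlap was not computed, so these counts have no rate to be set against.

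Both collagen genes had more H3K27me3 in adult cells by the deposited scaling. Col1a1 had 145 reads in adult cells and 37 in neonatal cells, a ratio of 2.46 (1.70 to 3.63). Col1a2 had 39 adult reads against the floor in neonatal cells, a lower limit of 4.14-fold, with 3 adult islands in the window and no neonatal island. The authors' deposited table as a whole leaned the same way, with a median log2 value of 2.91, and measured from that median Col1a1 was lower in adult cells, at -1.61. Col1a2 stood at 1.70 from the median when the floor is read as 1.

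Cdh5 had 56 H3K27me3 reads in adult cells and 6 in neonatal cells, with no island at either stage, and its ratio was 5.86 (2.53 to 16.6). Pecam1 had 11 adult reads against the floor in neonatal cells, a lower limit of 1.00-fold. Measured from the table median both turned to lower in adult cells, at -0.36 for Cdh5 and -0.13 for Pecam1. By the authors' deposited table, 4 of 6 regions had more H3K27me3 in adult cells (Col1a1, Col1a2, Pecam1 and Cdh5), beside 19.8% of all regions, and 1 was lower (Pdgfra), beside 7.53%. An H3K27me3 island lay in 4 of the 6 regions in adult cells and in 3 in neonatal cells, beside 20.6% of table regions in adult cells and 17.8% in neonatal cells. Postn had a single adult H3K27me3 island of 1.4 kb with a score of 19, above 22.1% of its list. A few places took a large share of the reads in some libraries: chr2:98502200-98507599 alone held 58.9% of the neonatal H3K27me3 reads and 58.7% of the neonatal H3K9me3 reads in the tables' regions. In adult cells chr10:104053800-104055399 held 13.5% of the H3K27me3 reads and 11.2% of the H3K9me3 reads. The same place held 10.4% of the H3K4me3 reads in adult cells and 4.66% in neonatal cells, and the chr2 place held 14.8% of the neonatal H3K79me2 reads. Their part in the values above was not tested.

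H3K9me3, the heterochromatin mark, was called in 4 windows in adult cells (Tcf21, Pdgfra, Pecam1 and Cdh5) and in 2 in neonatal cells (Col1a1 and Pdgfra). The adult list was longer, with 14921 islands against 8059 in neonatal cells. With equal numbers of top islands each stage had 2 windows, Tcf21 and Cdh5 in adult cells and Col1a1 and Pdgfra in neonatal cells. Tcf21 had 72 H3K9me3 reads in adult cells and 40 in neonatal cells, a ratio of 1.98 (1.33 to 2.99). Col1a2 had 22 adult reads against the floor in neonatal cells, a lower limit of 3.91-fold, with no island at either stage. Pdgfra had 52 reads in adult cells and 87 in neonatal cells, a ratio of 0.657 (0.457 to 0.937). Col1a1 had 71 in adult cells and 78 in neonatal cells, a ratio of 1.00 (0.715 to 1.398). The Cdh5 region had no H3K9me3 value in any table, and its adult island scored 34, above 62.3% of the list. For Pecam1 the tables gave 15 neonatal reads and no adult value. By the authors' deposited table, 2 of 6 regions had more H3K9me3 in adult cells (Tcf21 and Col1a2), beside 24.8% of all regions, and 1 was lower (Pdgfra), beside 25.4%. An H3K9me3 island lay in 3 of the 6 regions in adult cells and in 2 in neonatal cells, beside 12.4% of table regions in adult cells and 9.6% in neonatal cells.

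Against mES cells the 4 fibroblast regions compared (Postn had none) stood higher in the marks that go with transcription, except that Tcf21 was lower in H3K4me3 in adult cells and Pdgfra was not listed in H3K79me2 in neonatal cells. In H3K4me3 the authors' deposited tables listed Col1a1, Col1a2, Pdgfra and Cdh5 as higher in adult cardiomyocytes than in mES cells, beside 33.2% of all regions, and Tcf21 and Pecam1 as lower, beside 33.7%. Neonatal cells were higher at all 4 fibroblast regions in the authors' deposited tables, beside 30% of all regions, and lower at Pecam1, beside 30.6%. Tcf21 was thus on opposite sides of mES cells at the 2 stages in the authors' deposited tables, with a log2 value of -1.55 in adult cells and 3.02 in neonatal cells. The 2 comparisons share the mES library. The factors that scaled the H3K4me3 reads were 1.98 for adult and 2.68 for neonatal cells here. In the comparison between the stages they were 0.77 and 1.30. The values against mES cells include such factors, and their directions were not recomputed without them.

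In H3K79me2 Pecam1 stood apart from the other members, but its compared region has the same ends as an mES H3K79me2 island. A lower value in cardiomyocytes is thus favoured by where that region lies. The region also holds an mES H3K4me3 island. The authors' deposited tables gave Pecam1 a log2 value against mES cells of -2.43 in adult cells and -6.45 in neonatal cells. The neonatal reads behind the second value were at the lowest value of 1. Over the Pecam1 window mES cells had 5 H3K79me2 islands, and none over the other 6. Col1a1 had the highest values in H3K79me2 among the members in the authors' deposited tables, 6.13 in adult cells and 6.85 in neonatal cells. All regions but Pecam1 were higher in adult cells than in mES cells in the authors' deposited tables, 5 of 6, beside 40.4% of all regions. In neonatal cells 4 of 6 were higher in the authors' deposited tables (Tcf21, Col1a1, Col1a2 and Cdh5), beside 27.1%. At every region listed as higher, Col1a1 included, the log2 value implies mES reads at the tables' lowest value of 1. The sizes of these H3K79me2 values thus rest on a floor in mES cells, and their order follows the cardiomyocyte reads.

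H3K27me3 islands covered more of the windows in mES cells than at either stage, with 38.1% of the fibroblast windows and 16% of the endothelial ones. The whole mES list also covered more, 112 Mb, against 50.2 Mb in adult and 45.0 Mb in neonatal cells. A 27.2 kb island overlapped the Col1a1 window, and 4 islands lay over Cdh5, where neither cardiomyocyte stage had one. By the authors' deposited tables, 4 of 6 regions were nevertheless higher in adult cells than in mES cells in H3K27me3 (Tcf21, Col1a1, Col1a2 and Pecam1), beside 26.9% of all regions, and none was lower, beside 26.2%. The factor of the adult H3K27me3 reads was 2.04 there, against 0.79 between the stages, and the directions were not recomputed without it. Neonatal cells were higher at 2 (Tcf21 and Pdgfra), beside 15.8%, and lower at 2 (Col1a2 and Cdh5), beside 16.4%, in the authors' deposited tables. In H3K9me3 the 4 fibroblast regions were higher in adult cells than in mES cells in the authors' deposited tables, beside 25.8% of all regions. Neonatal cells were higher at Tcf21, Col1a1, Pdgfra and Pecam1, beside 24%, and lower at Col1a2, beside 23.7%, by the authors' deposited tables. Col1a2 differed between the stages in this mark too, with log2 values against mES cells of 1.51 in adult cells and -3.15 in neonatal cells in the authors' deposited tables, the neonatal reads being at the lowest value of 1.

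**Figure D5:**
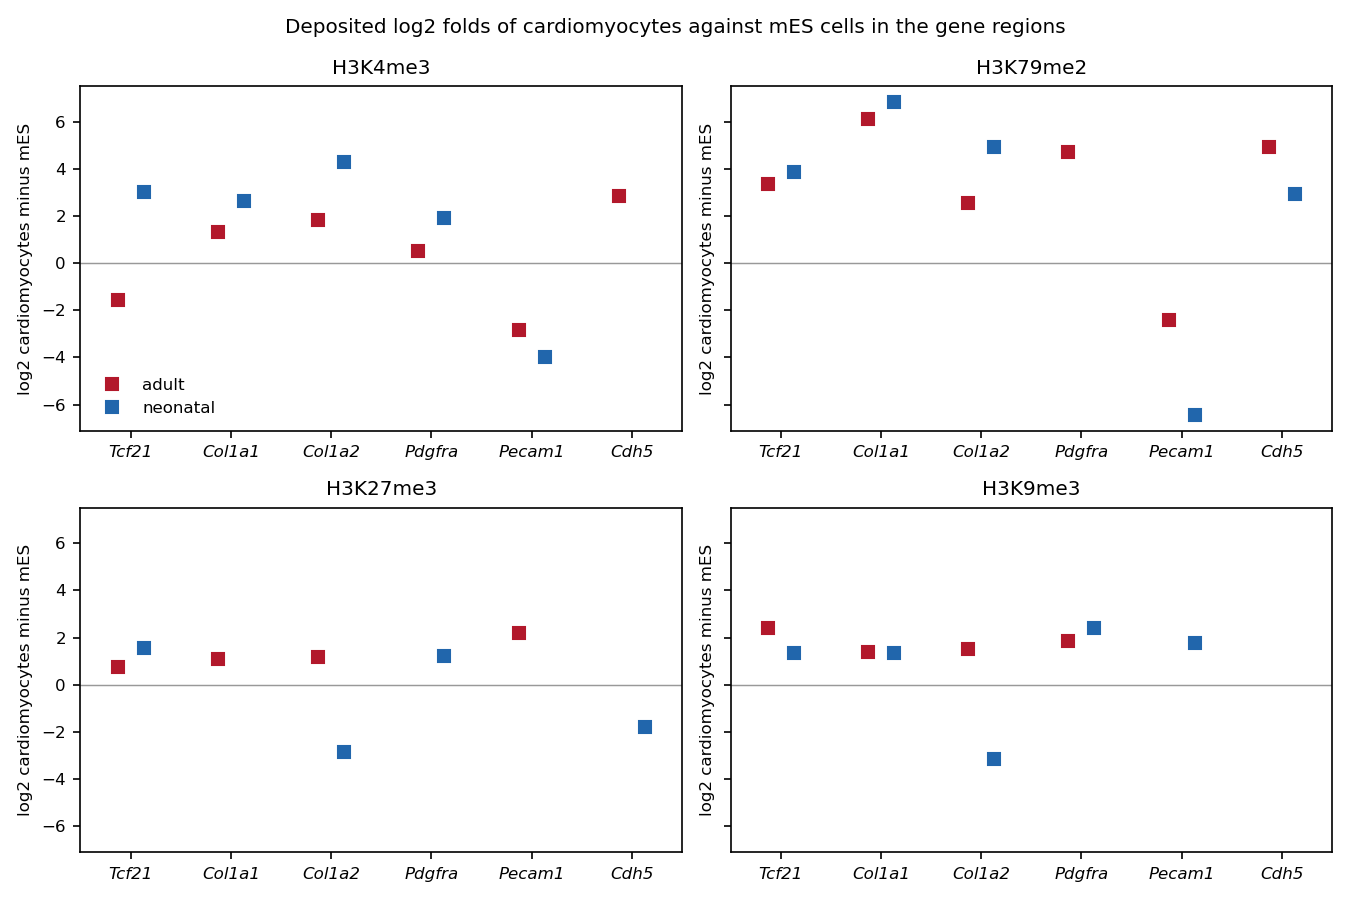
The authors' deposited log2 values of cardiomyocytes minus mES cells in the 6 gene regions (red, adult; blue, neonatal; no point where the table lists no row). Tcf21 in H3K4me3 lies at -1.55 in adult and 3.02 in neonatal cells, and Pecam1 in H3K79me2 lies at -2.43 and -6.45. The Pecam1 region has the same ends as an mES H3K79me2 island, and its neonatal H3K79me2 reads were at the lowest value of 1. The H3K79me2 values above 0 imply mES reads at that lowest value.

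Over all 4 marks, 18 of the 24 pairs of region and mark were listed in the authors' deposited stage tables, 10 as higher and 8 as lower in adult cells. In 5 of the 10 higher pairs the neonatal reads were at the lowest value of 1, and in none of the 8 lower pairs were the adult reads. The marks that go with transcription, H3K4me3 and H3K79me2, were both lower in adult cells at Col1a1 and Col1a2 and both higher at Cdh5, although H3K79me2 at Col1a1 turned to higher without the library factors. In the compared Pdgfra region they went opposite ways, with H3K4me3 lower and H3K79me2 higher in adult cells. That H3K79me2 value rests on neonatal reads at the floor, with no H3K79me2 island in the region at either stage. Outside the region, the Pdgfra window held an H3K79me2 island of 6.2 kb in neonatal cells and 3.6 kb in adult cells. The neonatal island started just past the region's end. Tcf21, lower in H3K4me3, was not listed in H3K79me2. Some of the members overlap other annotated genes in RefSeq on GRCm38: Gm10824 with Tcf21, Gm31095 with Postn, Mir7025 with Pdgfra and Gm29682 with Cdh5. Reads of these genes cannot be told apart from those of the members, since the assay has no strand. The search used the gene spans on that build and not the mm9 windows, so other genes inside a window were not looked for. The marks of cardiomyocyte genes were not placed here, so the labelled cell type was not checked against its own markers, and no share of fibroblasts or endothelial cells was estimated at either stage.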

How the data were processed

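Chromatin of adult and neonatal mouse cardiomyocytes was immunoprecipitated for 4 histone marks, with 1 library per mark and stage and 3 input libraries. Reads were aligned with Bowtie 0.12.8 to mm9 and enriched regions were called with SICER 1.1 and MACS 1.4.2, with DiffBind 1.2.0 also named, per the submitters' processing notes, which do not tie a tool to each file. The deposited SICER lists carry a score per island, set by the authors. The authors' deposited comparison tables hold, in each row, a region, log2 normalised values of both libraries, their log2 fold and an FDR (an adjusted p-value) with decimal commas, and list rows under 0.01. Their mES reads were published by others, and 8 columns with levels of that cell type stayed out.

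Whole reads after control subtraction were recovered from the deposited log2 values in 100% of rows (tolerance 0.01). The reads in the stage tables' regions ranged from 666454 to 1909214 in adult libraries and from 461190 to 1532750 in neonatal libraries, and the total depth of a library is unknown. Islands and regions counted when they overlapped a window by 1 bp. Ratios used the factors of the tables, with exact conditional binomial 95% intervals. No test between stages was made, since each has 1 library. Tools were Python 3.11.15, numpy 2.4.6, pandas 2.3.3, scipy 1.17.1 and matplotlib 3.10.9, and the ratio step was tested on simulated data. All 7 genes are named. Other marker lists, cardiomyocyte genes included, were not used, because no mm9 annotation was at hand. The genes and lists were chosen with earlier results of these data known.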

Additional observations from a re-analysis of the deposited data

How the results depend on the processing

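Of 188 alternative values over 58 results, 130 kept their direction and stayed within the tolerance (within 1.5 times the main count for counts, within the 95% interval for shares and read ratios), 53 moved and 5 reversed. With 1 library per mark and stage, the interval for shares only sets these labels and measures no spread between libraries. The MACS regions gave no gene with a region, and a covered share of 0%, for adult H3K4me3, H3K79me2, H3K27me3 and H3K9me3 and for neonatal H3K79me2, H3K27me3 and H3K9me3. For neonatal H3K4me3 they kept 4 genes (Tcf21, Col1a1, Col1a2 and Pdgfra) and a share of 2.38%. The MACS lists held from 484 to 13210 regions, so an empty result is not read as one about these genes. With the higher-scoring 50% of each list, 2 genes each remained for adult H3K79me2 and adult H3K9me3. The covered shares were then 7.74% (adult H3K4me3), 2.05% (adult H3K79me2), 8.62% (adult H3K27me3), 3.28% (adult H3K9me3) and 5.63% (neonatal H3K79me2). With equal numbers of top islands, adult H3K79me2 had 0 genes and 0%, and adult H3K9me3 had 2 genes and 3.28%, beside 2 genes in neonatal cells. Windows widened by 5 kb gave 7.54% for adult and 12.1% for neonatal H3K4me3, and 5.89% for neonatal H3K79me2. Windows narrowed by 5 kb left 1 gene for neonatal H3K9me3.

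Requiring a called island where reads were higher, or more than 1 read at both stages, left 1 region higher in adult cells in H3K79me2, 2 in H3K27me3 and 1 in H3K9me3. The 2 in H3K27me3 were Col1a1 and Col1a2 by the island rule, but Col1a1 and Cdh5 by the read rule. Centred on the table median, H3K27me3 had 1 region higher and 4 lower in adult cells. The log2 values in H3K27me3 were then -1.61 (Col1a1), -0.13 (Pecam1) and -0.36 (Cdh5), all reversed, 1.70 (Col1a2) and -3.52 (Pdgfra). In H3K4me3 they were -1.89 (Col1a1), -3.09 (Col1a2) and -2.04 (Pdgfra), in H3K79me2 -1.44 (Col1a1), and in H3K9me3 -0.025 (Pdgfra). Without the library factors the log2 values in H3K4me3 were -0.40 (Col1a1), -1.60 (Col1a2) and -0.56 (Pdgfra). They were -1.42 (Col1a2) and 0.25 (Col1a1, reversed) in H3K79me2, and 1.97 (Col1a1) and 0.070 (Pdgfra, reversed) in H3K27me3. The values against mES cells were not recomputed without the factors. At an FDR under 0.0001 no region was lower in adult cells in H3K9me3, 1 was lower in neonatal than in mES cells in H3K27me3, and 0 in H3K9me3. Beyond these constructions the cause was not tested.

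No paired analysis was possible because each mark has 1 library per stage. Values at 1 read are the tables' floor, which limits what the neonatal H3K79me2, H3K27me3 and H3K9me3 reads can show.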
